A study of Rattus norvegicus with 16 samples.

Results

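Human FGF2 was compared with no treatment in rat myelinating cultures, on 8 of the 16 arrays of the study. These were the 4 arrays labelled humanFGF2 and the 4 labelled Control, chosen by their treatment label alone, and 15653 of the 36685 transcript clusters on the array carried a gene symbol and were compared. All cultures held spinal cord cells of Sprague-Dawley rat embryos at the embryonic age E15.5, grown on a layer of astrocytes that had been raised from striatal neurospheres of animals at postnatal day 1. FGF2 was present for 24 h from day 18 in vitro, cultures were collected at day 19, and the sample labels give no dose. A group that received F2V2, an FGF2 variant with a shortened N-terminus, entered the fit only to share the estimate of spread, and a group labelled wtFGF2 entered only an alternative fit. The description deposited with the series speaks of independent cultures while the study's legend speaks of technical replicates, so each p-value here covers array-to-array spread, which may be technical.

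FGF2 is a heparin-binding growth factor that, together with heparan sulfate, brings FGF receptor tyrosine kinases into pairs. The paired receptors activate the Ras and ERK kinase cascade, phosphatidylinositol 3-kinase and phospholipase C, ERK then induces immediate early transcription factors, and Sprouty proteins and dual specificity phosphatases are induced in turn and restrain the cascade. In the central nervous system FGF2 is known as a mitogen of neural and oligodendrocyte progenitors that holds back their differentiation, and astrocytes respond to it strongly.

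A transcript cluster was called at a limma adjusted p under 0.05 together with a change of at least 1.4-fold. FGF2 raised 1637 of the 15653 clusters (10.5%) and lowered 1344 (8.59%), which is 2981 called in all (19%). By adjusted p alone 45.6% passed, and the values of the 2 groups did not overlap for 46.1% of clusters. Most called changes were small, with 1148 rises and 999 falls between 1.4-fold and 2-fold. A change of 4-fold or more was measured for 66 clusters between 4-fold and 8-fold and 27 at 8-fold or more among the rises, and for 36 and 7 among the falls, so that large changes were mostly rises. The median log2 fold change over all genes was 0.02. The array medians were 7.285 to 7.323 in control and 7.331 to 7.376 with FGF2, the lowest correlation between 2 arrays of a group was 0.997, and the median SD over the 4 arrays was 0.0910 in control and 0.0803 with FGF2 on the log2 scale. When each array's median was subtracted, rises were 48.3% of all calls, against 54.9% as measured. When the lower group mean is under a log2 value of 5, close to the floor of the array, a fold change is given as a lower bound.

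**Figure D1:**
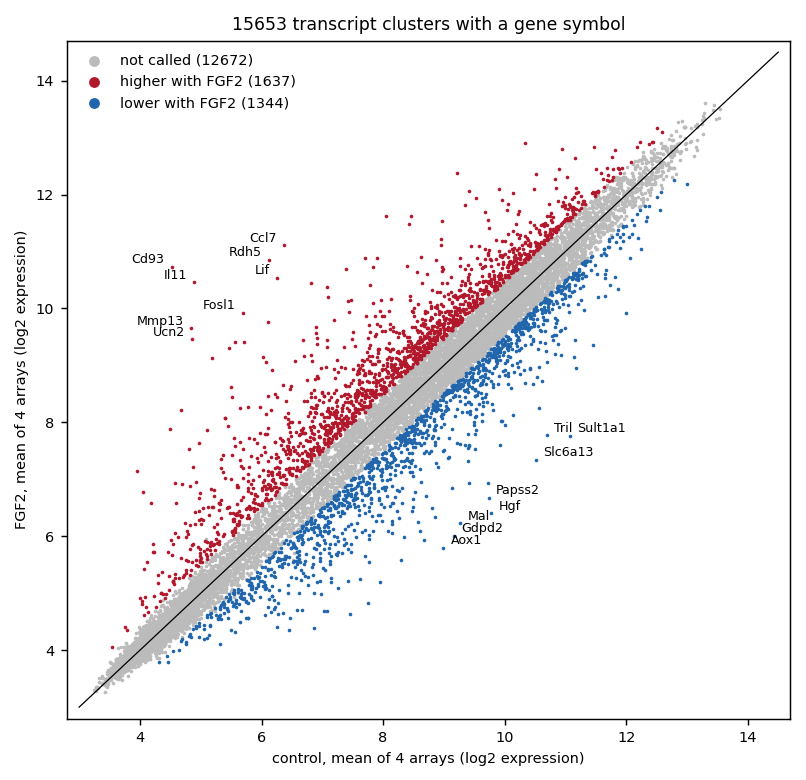
Mean log2 expression of the 4 control arrays (horizontal) against the 4 FGF2 arrays (vertical), 1 point for each of the 15653 transcript clusters, with called clusters in colour and the names of the 8 genes with the highest and the 8 with the lowest log2 fold change. The points farthest from the diagonal lie above it, at low control values.

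The cultures carried the RNA of several cell types, and markers were read as a check of that mixture. The 5 measured neuron markers had control means between 10.39 and 12.46, and 1 rose, the growth cone protein Gap43 (0.82), and 0 fell. All 5 measured oligodendrocyte markers fell, and their summed level went from 13.12 to 13.32 in control to 12.33 to 12.55 with FGF2 (log2 of the summed linear values). Of 4 astrocyte markers 2 fell, of 6 progenitor markers 3 fell and of 8 microglia and macrophage markers 1 fell, and 0 rose in these lists. Microglia and macrophage markers went both ways. P2ry12, the 1 fall, had -0.50 and Csf1r -0.39, while Tmem119 (0.48), Itgam (0.43) and Cd68 (0.42) were higher but under 1.4-fold. Among progenitor markers under 1.4-fold, Olig2 had 0.45 and Pdgfra -0.42. Each of these genes had a limma adjusted p under 0.05. The endothelial markers Cldn5 and Tek were near the floor, at 3.77 and 4.42 in control. Several defining markers had no named cluster, among them Gfap, Aqp4 and Mbp, and are not analysed here. In such a mixture fewer cells of a type and less RNA per cell cannot be told apart.

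The gene with the highest log2 fold change was Cd93, a C-type lectin-like receptor of endothelial and myeloid cells. It had log2 values of 4.64, 4.43, 4.30 and 4.72 on the control arrays and 10.77, 10.74, 10.79 and 10.63 on the FGF2 arrays. Every FGF2 array was far above every control array, and the rise was at least 74.1-fold (log2 fold change 6.21, standard error 0.11, limma adjusted p = 8.11e-13). The summed endothelial markers stood at 8.68 to 9.62 in control and 8.63 to 9.19 with FGF2, and those of microglia and macrophages at 11.73 to 12.08 and 11.70 to 11.89. The endothelial sum rested on Cdh5, as Cldn5 and Tek lay under 5 and Emcn at 5.12 in control. The part of these cells in the Cd93 result was not tested. Il11, a cytokine of the IL-6 family, had values of 5.12, 4.57, 4.60 and 5.26 in control and 10.31, 10.51, 10.57 and 10.45 with FGF2, a rise of at least 47.5-fold (adjusted p = 1.11e-10). Mmp13, a collagenase, rose at least 28.1-fold, from 4.77, 4.93, 4.86 and 4.80 to 10.35, 9.50, 9.28 and 9.48 (adjusted p = 9.05e-10). The FGF2 arrays of Mmp13 spread more widely than those of Cd93, with FGF2 replicate 1 the highest. Large rises were also measured for secreted or shed ligands that act on other cells. Lif, another IL-6 family cytokine, rose 19.5-fold, from 6.25, 6.18, 6.31 and 6.27 to 10.63, 10.65, 10.48 and 10.40 (adjusted p = 8.11e-13). Hbegf, a membrane-bound ligand of the EGF receptor, rose 11.9-fold, from 7.88, 8.09, 7.97 and 8.23 to 11.61, 11.61, 11.68 and 11.58 (adjusted p = 1.64e-12).

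The other genes among the 15 highest were the monocyte chemokine Ccl7 (log2 fold change 4.74), the retinol dehydrogenase Rdh5 (4.73), the corticotropin-releasing hormone relative Ucn2 (at least 4.60), the AP-1 subunit Fosl1 (4.23), the orphan receptor Gprc5a (3.95), the cytokine Clcf1 (3.85), C3h15orf62 (3.84), the galanin-like peptide Galp (3.70), the interleukin-1 receptor antagonist Il1rn (3.66) and the leucine-rich repeat membrane protein Lrrc15 (3.63). Control means of the 15 lay between 4.52 and 8.04 and FGF2 means between 9.13 and 11.62. For 4 of the 15 the control mean was under 5. Among called genes bright in both groups, with means of at least 7, the largest rises after Hbegf were those of Adamts1, a protease of aggrecan-type proteoglycans (3.31), Tbxas1, the thromboxane synthase (3.28), Gldn, gliomedin, a matrix protein of Schwann cells at nodes of Ranvier (3.17), Igfbp3, an IGF binding protein (3.17), Shc4, an adaptor of receptor tyrosine kinases (3.16), Serpinb2, an inhibitor of plasminogen activators (3.11), and Dusp6, a phosphatase of ERK (3.04). Gldn had values of 7.99, 7.86, 7.64 and 7.35 in control and 10.76, 11.05, 10.83 and 10.89 with FGF2, with no overlap. Of 3 measured Schwann cell markers, Egr2 (2.75) and Ngfr (0.53) rose and Prx, at 4.96 in control, had -0.19. The call for Ngfr was lost without control replicate 2 (0.48) and after each array's median was subtracted. The part of these cells in the Gldn result was not tested.

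Among the falls, Hgf, hepatocyte growth factor, went from 9.77, 9.76, 9.84 and 9.77 in control to 6.44, 6.38, 6.39 and 6.38 with FGF2. The groups were separated by more than 3 log2 units, a 10.5-fold fall (log2 fold change -3.39, standard error 0.07, limma adjusted p = 1.57e-12). Sult1a1, a phenol sulfotransferase, fell 9.97-fold, from 10.66, 11.24, 11.32 and 11.09 to 7.50, 7.75, 8.13 and 7.66 (adjusted p = 1.76e-08). Slc6a13, a GABA transporter, fell 9.08-fold, from 10.32, 10.85, 10.56 and 10.35 to 7.09, 7.16, 8.0 and 7.09 (adjusted p = 9.28e-09), with FGF2 replicate 3 nearest to control. Tril, a partner of Toll-like receptor 4, fell 7.63-fold, from 10.79, 10.73, 10.62 and 10.68 to 7.75, 7.72, 7.69 and 7.91 (adjusted p = 1.19e-12). The control values of all 15 lowest genes lay far above the floor, with means between 7.45 and 11.08, and the FGF2 means lay between 4.64 and 7.77. The rest of these were the aldehyde oxidase Aox1 (-3.18), the glycerophosphodiesterase Gdpd2 (-3.15), the sulfate donor synthase Papss2 (-3.06), the myelin proteolipid Mal (-3.04), the cytochrome P450 Cyp4f4 (-2.92, a lower bound on the fall), the nucleotidase Nt5c1a (-2.81, likewise a lower bound), the flavin monooxygenase Fmo1 (-2.80), the Notch target Hes5 (-2.76), Itgbl1 (-2.73), Fam216b (-2.70) and Olfml1 (-2.53). Fmo1 had FGF2 values of 7.73, 6.81, 6.52 and 6.65 against 9.43, 9.95, 9.87 and 9.64 in control.

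**Figure D2:**
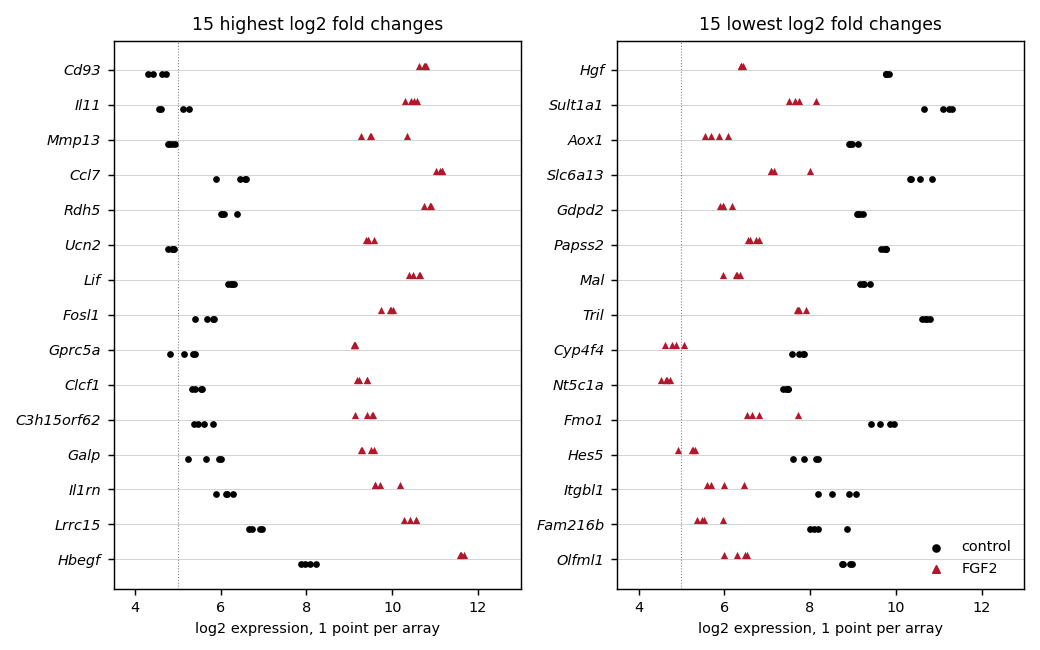
Log2 expression on each array (horizontal) of the 15 genes with the highest (left) and the 15 with the lowest log2 fold change (right), with control arrays as circles, FGF2 arrays as triangles and a dotted line at a log2 value of 5. The groups do not overlap for any of the 30 genes, which was part of the rule that chose them. The rises start from control means between 4.52 and 8.04.

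The promoters of the strongest rises were read for binding motifs of transcription factors that ERK signalling is known to reach, in the 250 bases before the start of each gene as RefSeq places it in GRCr8. The AP-1 motif was searched as TGANTCA, the E-box bound by Myc and Max as CACGTG, and an ETS motif as CCGGAAGT, all on both strands; the motifs do not overlap in their letters. Of the 15 highest genes 11 had a promoter entry, and 6 of these 11 (54.5%) held the AP-1 motif. The E-box and the ETS motif were each in 0 of these 11. Of the 15 lowest genes 12 had a promoter entry, and 2 of these 12 (16.7%) held the AP-1 motif. It was found in 14 of 75 promoters of the genes that rose 4-fold or more (18.7%), in 3 of 34 of those that fell 4-fold or more (8.82%) and in 702 of 11787 promoters of all genes tested (5.96%). Among all called genes the AP-1 shares were 6.21% for rises and 4.04% for falls. In the rises of 4-fold or more the E-box was in 8.0% of promoters and the ETS motif in 2.67%. Both were in 0 of the 34 promoters of the falls of 4-fold or more, and in 6.63% and 4.91% of all promoters. The 6 promoters of the 15 highest genes that held the AP-1 motif are shown. Each is given as 120 bases read 5′ to 3′ toward the gene, with the motif in capitals. Those of Rdh5, Fosl1, Galp, Il1rn and Hbegf had an entry without the motif and are not shown. A match is a description of these letters and not evidence of binding.
Il11 (chr1:78098424-78098543, plus strand): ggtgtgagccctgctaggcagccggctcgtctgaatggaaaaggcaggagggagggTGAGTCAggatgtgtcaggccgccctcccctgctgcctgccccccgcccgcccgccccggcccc
Mmp13 (chr8:12782707-12782826, plus strand): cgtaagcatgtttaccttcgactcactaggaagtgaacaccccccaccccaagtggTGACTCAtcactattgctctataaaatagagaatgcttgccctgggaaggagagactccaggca
Ccl7 (chr10:67513966-67514085, plus strand): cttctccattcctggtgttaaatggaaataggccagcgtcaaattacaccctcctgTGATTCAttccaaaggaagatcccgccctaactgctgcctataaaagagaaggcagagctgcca
Ucn2 (chr8:118515888-118516007, plus strand): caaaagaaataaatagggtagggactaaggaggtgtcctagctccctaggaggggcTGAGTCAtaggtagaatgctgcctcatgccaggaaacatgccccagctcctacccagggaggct
C3h15orf62 (chr3:126617905-126618024, plus strand): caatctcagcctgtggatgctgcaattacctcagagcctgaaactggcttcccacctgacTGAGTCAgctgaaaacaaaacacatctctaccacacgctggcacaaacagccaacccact
Lrrc15 (chr11:83974588-83974707, plus strand): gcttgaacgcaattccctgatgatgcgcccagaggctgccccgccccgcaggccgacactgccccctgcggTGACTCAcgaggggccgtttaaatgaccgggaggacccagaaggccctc

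These 6 genes encode a cytokine, a collagenase, a chemokine, a peptide hormone, a protein without an assigned role here and a membrane protein, so that the motif was shared by genes of unlike function. The motif began 142 bases before the start in Il11, 66 in Mmp13, 73 in Ccl7, 167 in Ucn2, 60 in C3h15orf62 and 49 in Lrrc15. In Il11, Ucn2 and C3h15orf62 the strand shown read TGAGTCA, in Mmp13 and Lrrc15 TGACTCA and in Ccl7 TGATTCA.

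Feedback inhibitors of the ERK cascade and related genes rose in 13 of 20 measured members and fell in 2. Lists of genes by role were used from here on, 69 groups with 1054 measured genes, and each count is set against all genes counted at 1 cluster a gene, of which 10.6% rose and 8.86% fell. Of these 14557 genes 4403 had both group means under 5, against 0 of the 43 nucleolar genes and 0 of the 12 cilium genes. The shares were thus not matched for signal level. All 3 measured Sprouty genes rose (median log2 fold change 1.44), led by Spry4, from 7.64, 7.15, 7.29 and 7.80 to 10.24, 10.15, 10.08 and 10.14 (2.68, limma adjusted p = 7.88e-10). Of 9 phosphatases of MAP kinases 7 rose and 0 fell (median 0.88). Dusp6 had values of 8.50, 8.23, 8.53 and 8.46 in control and 11.53, 11.49, 11.46 and 11.43 with FGF2, and Dusp5, a nuclear phosphatase of ERK, rose by 2.99 (adjusted p = 1.32e-10). Neither gene showed any overlap between groups. Errfi1, which inhibits the EGF receptor, rose by 1.36, while Il17rd, the membrane inhibitor of FGF signalling known as Sef, fell by 0.63 (adjusted p = 1.68e-05) and Flrt1, a membrane partner of FGF receptors, fell by 0.60. The feedback and related genes thus did not all move the same way.

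Immediate early transcription factors rose in many members, and 0 fell among the AP-1, the Egr and Ier, and the ETS genes. Of 10 Egr, Ier and related genes 8 rose (median 1.45). Egr2, a zinc finger factor, went from 6.09, 6.11, 6.09 and 6.38 to 8.85, 8.84, 9.0 and 8.98 (2.75, adjusted p = 1.15e-10), and Ier5 rose by 1.97, Ier3 by 1.76 and Ier2 by 1.62. Of 10 AP-1 subunits 6 rose, and the largest change was that of Fosl1, from 5.39, 5.85, 5.69 and 5.82 to 9.97, 9.95, 9.75 and 10.01 (4.23, adjusted p = 8.92e-11). Fos (0.93), Jun (1.02) and Junb (1.14) had smaller log2 fold changes. Among 9 ETS factors 4 rose, with Etv5, a factor induced by FGF signalling, at 1.44 and Elk3 at 1.53. Myc, the transcription factor of growth genes, went from 7.91, 8.08, 7.88 and 7.71 to 9.71, 9.80, 9.77 and 9.64 (1.83, adjusted p = 2.80e-10), whereas its relative Mycl fell from 9.14, 9.23, 9.26 and 9.20 to 7.68, 7.77, 7.56 and 7.55 (-1.57, adjusted p = 2.35e-09). Mxd1, which pairs with Max and opposes Myc, fell by 0.80. Of 11 Krüppel-like factors 3 rose and 2 fell, among them Klf10 (1.57) and Klf15 (-1.44, a lower bound on the fall). The falls were 1 without control replicate 2 or 3 and without FGF2 replicate 2, 3 or 4.

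Regulators of G protein signalling shorten signals of G protein-coupled receptors, and 4 of 11 rose and 1 fell. Rgs16 went from 9.44, 9.59, 9.46 and 9.16 to 11.99, 12.12, 12.02 and 12.17 (2.66, adjusted p = 8.69e-11), and Rgs4 and Rgs2 rose by 0.90 and 0.61. Rgs9 moved the other way (-0.80, adjusted p = 6.49e-07).

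**Figure D3:**
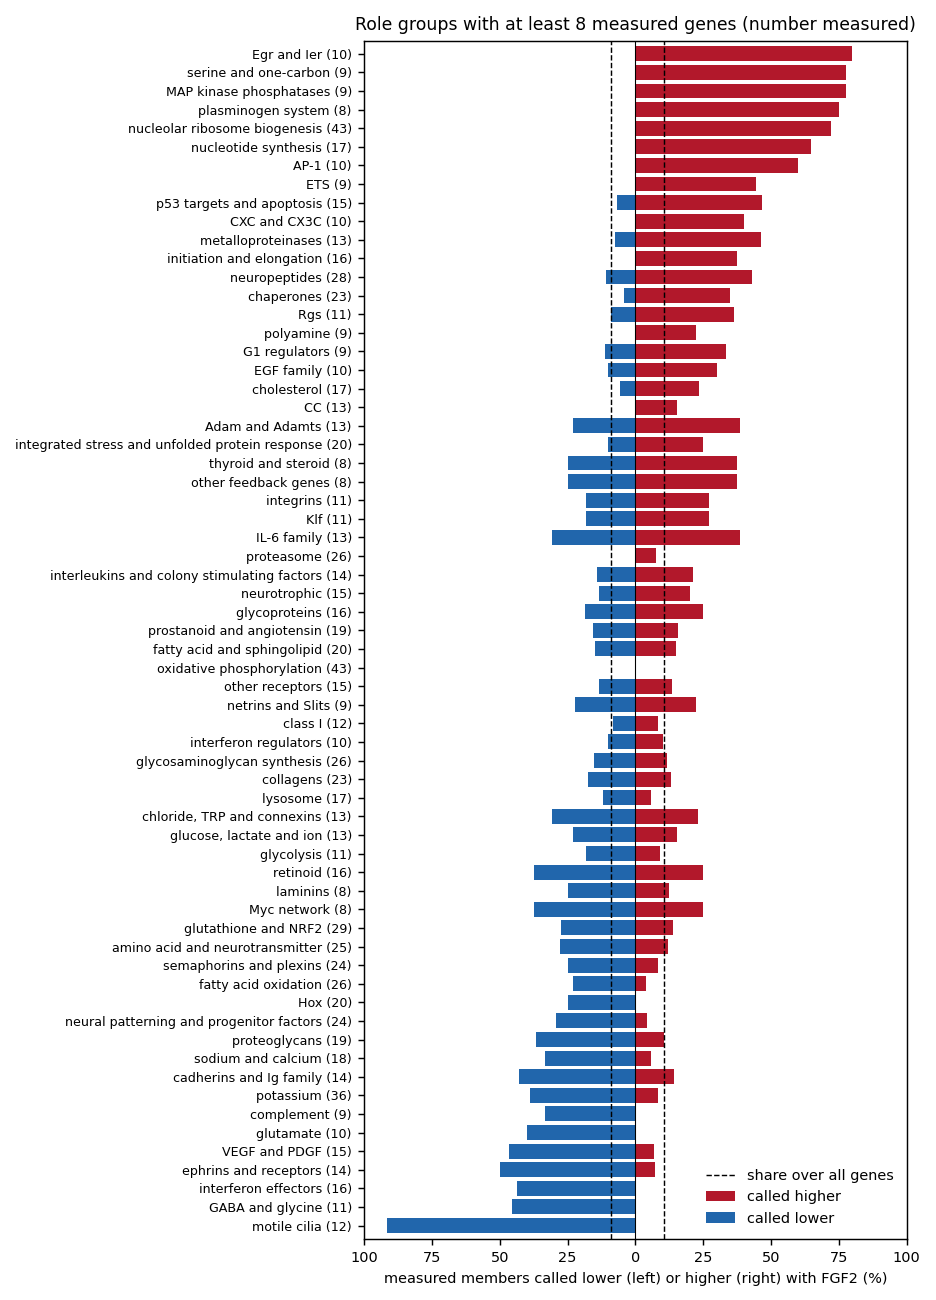
Share of the measured members of each role group that was called higher (right) or lower (left) with FGF2, for the 64 groups with at least 8 measured genes, whose number stands in brackets, and dashed lines at the share over all genes (10.6% higher and 8.86% lower). Egr and Ier genes, phosphatases of MAP kinases and nucleolar genes lie at the upper end and genes of motile cilia, of which 11 of 12 fell, at the lower end.

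Cytokines of the IL-6 family signal through the shared receptor gp130, and the family split into rising and falling members. Of 13 measured ligands and receptors 5 rose and 4 fell (median 0.12). Il11, Lif and Clcf1 rose as given above, with Clcf1 going from 5.40, 5.34, 5.54 and 5.56 to 9.19, 9.42, 9.22 and 9.41 (14.4-fold, adjusted p = 5.00e-12). The ligand Cntf, a survival factor made by astrocytes, fell from 9.31, 9.31, 9.39 and 9.40 to 8.35, 8.34, 8.33 and 8.26 (-1.03, adjusted p = 2.27e-09). Clcf1 and Cntf, which share the CNTF receptor, thus moved in opposite directions. Il6 had a log2 fold change of 0.15 and was not called.

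In the EGF family 3 of 10 ligands and receptors rose and 1 fell. The ligands Hbegf (3.58) and Areg (at least 1.52) rose, Ereg passed the test with both group means under 5 and is given no fold, and the receptor Egfr fell from 9.46, 9.54, 9.55 and 9.39 to 8.75, 8.84, 8.63 and 8.61 (-0.78, adjusted p = 6.11e-06). Among 15 genes of the VEGF, PDGF and angiopoietin systems 1 rose and 7 fell (median -0.42). The riser was Flt1, the VEGF receptor that also exists as a soluble decoy, from 4.94, 5.18, 5.14 and 5.15 to 8.20, 7.76, 7.89 and 7.65 (2.77, adjusted p = 1.23e-09). Pdgfd, a PDGF ligand, fell from 7.75, 7.46, 7.74 and 7.85 to 5.70, 5.70, 5.54 and 5.65 (-2.05, adjusted p = 5.82e-10). Angpt1, an angiopoietin, fell by 1.03 and Pdgfc fell by 0.63. Of 4 endothelial markers 0 were called, with Cldn5 and Tek under 5 and Emcn at 5.12 in control, so that their summed level rested on Cdh5 (-0.34, adjusted p = 0.247).

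Hgf and its receptor Met moved against each other. Hgf fell 10.5-fold, while Met rose from 7.18, 7.06, 7.17 and 7.01 to 8.09, 8.18, 8.18 and 7.97 (1.00, adjusted p = 7.64e-08). Bdnf, a neurotrophin that supports neurons and their synapses, rose from 6.06, 5.97, 6.07 and 6.28 to 7.74, 7.74, 7.80 and 7.90 (1.70, adjusted p = 2.99e-08), and Ret, the signalling receptor for GDNF ligands, fell by 0.94. In all, 3 of 15 neurotrophic genes rose and 2 fell. Of 7 IGF genes 2 rose and 1 fell, and 1 rose in the plain ANOVA and likewise without FGF2 replicate 1. Igfbp3 rose from 8.85, 9.48, 9.42 and 9.12 to 12.25, 12.34, 12.50 and 12.45 (3.17, adjusted p = 3.46e-10), and Igfbp2 fell by 0.69.

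Of 14 interleukins, colony stimulating factors and related genes 3 rose and 2 fell. Il1rn, which blocks the interleukin-1 receptor, went from 6.13, 6.29, 6.14 and 5.89 to 10.19, 9.60, 9.60 and 9.71 (3.66, adjusted p = 1.46e-10), and Gdf15, a stress-induced TGF-beta relative, rose by 1.57. Il34, a ligand of the colony stimulating factor receptor of microglia, fell by 0.83 (adjusted p = 1.15e-07). The microglia markers, given above, had overlapping summed levels in both groups.

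Among the chemokines 2 of 13 CC genes (15.4%) and 4 of 10 CXC and CX3C genes (40.0%) rose, beside 10.6% of all genes, and 0 fell. Ccl7 went from 5.90, 6.56, 6.58 and 6.45 to 11.11, 11.16, 11.15 and 11.02 (4.74, adjusted p = 2.43e-11). Ccl2, a related monocyte chemokine, was bright already in control, at 9.96, 10.33, 10.34 and 10.68, and reached 12.94, 12.98, 12.85 and 12.84 (2.58, adjusted p = 9.58e-10). The other 11 CC genes were not called, and 8 of the 13 had both group means under 5, where a change is hard to measure. Ccl4, whose means were above it, had 0.38 (adjusted p = 0.111). Cxcl1, a neutrophil attractant, rose by at least 1.98. Cxcl10, an attractant of T cells that interferon induces, went from 6.18, 6.78, 6.87 and 7.41 to 10.03, 9.59, 8.60 and 8.52 (2.37, adjusted p = 8.47e-05), with wide spread in both groups and no overlap.

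Interferon-induced antiviral effectors moved the other way from Cxcl10. Of 16 measured effectors 0 rose and 7 fell (43.8% called, median -0.44). Irgm, a GTPase induced by interferon, fell from 8.47, 8.90, 8.83 and 8.82 to 7.46, 7.73, 7.42 and 7.29 (-1.28, adjusted p = 1.45e-06). Ifi44 fell from 8.21, 8.66, 8.52 and 8.35 to 7.42, 7.77, 7.29 and 7.37 (-0.97, adjusted p = 1.30e-05), and Oas1b, of the oligoadenylate synthetase family that senses double-stranded RNA, fell by 0.87. The groups did not overlap for 9 of the 16 effectors, beside 46.1% of all clusters. Of 10 regulators of the interferon response 1 rose, the receptor subunit Ifngr2 (0.55, adjusted p = 3.62e-06), and 1 fell, Stat2, the factor that carries type I interferon signals (-0.73, adjusted p = 3.03e-06), and 2 fell without FGF2 replicate 2. Of 12 genes of antigen presentation by class I molecules 1 rose, the peptide transporter Tap1 (0.95, adjusted p = 1.69e-07). In that list 1 fell, the immunoproteasome subunit Psmb8 (-0.50, adjusted p = 0.00417), a call that was lost without control replicate 2 and without FGF2 replicate 1, 3 or 4. Called shares were 10.0% each way for the regulators and 8.33% for class I, close to the 10.6% and 8.86% of all genes. Of 9 complement genes 0 rose and 3 fell, with C3, the central component, at 8.89, 9.60, 9.82 and 9.32 in control and 8.30, 8.65, 8.42 and 8.09 with FGF2 (-1.04, adjusted p = 0.000858), and C1r and Serping1 at -0.65 and -0.62.

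Genes of the plasminogen and tissue factor system rose in 6 of 8 measured members and fell in 0 (median 1.29). This system turns plasminogen into the protease plasmin and starts clotting, and it holds both activators and inhibitors. Plau, the urokinase activator, went from 6.19, 6.35, 6.36 and 6.0 to 8.40, 8.42, 8.64 and 8.52 (2.27, adjusted p = 8.95e-10). Serpinb2, an inhibitor of urokinase, went from 6.95, 7.31, 6.98 and 7.13 to 10.14, 10.28, 10.22 and 10.17 (3.11, adjusted p = 1.05e-09). F3, tissue factor, the starter of clotting, went from 9.25, 9.22, 9.40 and 9.17 to 10.91, 10.89, 10.88 and 10.88 (1.63, adjusted p = 1.98e-10). Tfpi2, a Kunitz-type inhibitor of such proteases, rose by at least 2.73, whereas the related inhibitor Tfpi had -0.01. Activators and inhibitors thus both rose. The groups did not overlap for 6 of the 8 members, beside 46.1% of all clusters.

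**Figure D4:**
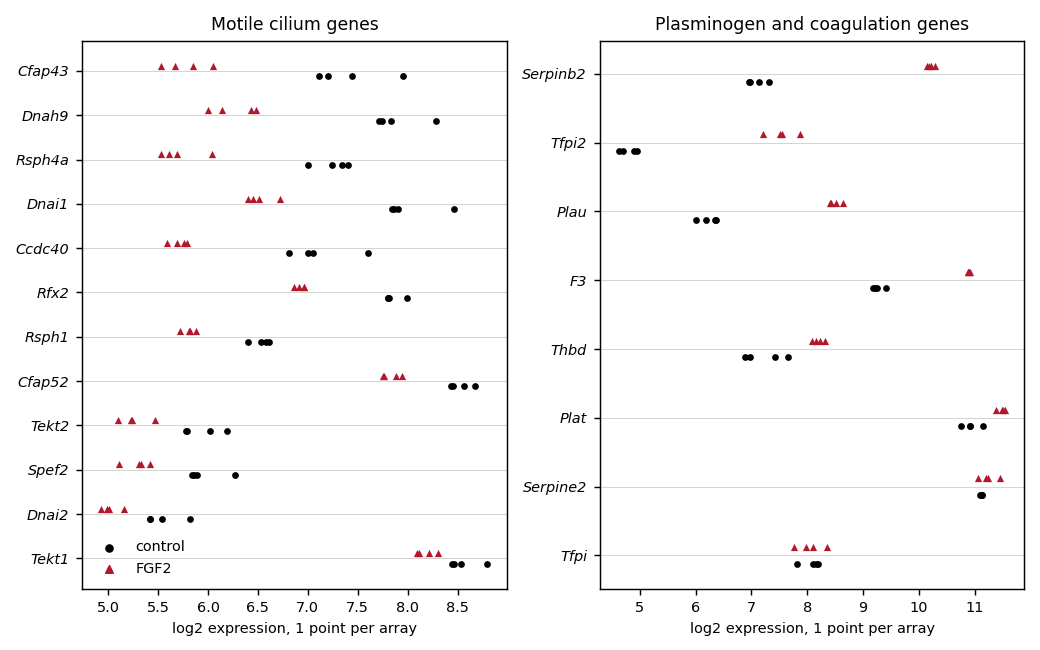
Log2 expression on each array (horizontal) of the 12 measured genes of motile cilia (left) and the 8 of the plasminogen and tissue factor system (right), with control arrays as circles and FGF2 arrays as triangles. The triangles lie to the left of the circles for every cilium gene and to the right for 6 of the 8 plasminogen genes.

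Proteases of the matrix and their inhibitors changed in many members. Of 13 matrix metalloproteinases 6 rose and 1 fell. Mmp3, stromelysin, went from 6.71, 6.93, 6.78 and 6.28 to 9.47, 9.58, 9.38 and 9.34 (2.76, adjusted p = 7.28e-10), and Mmp9, a gelatinase, rose by 1.21 (adjusted p = 1.65e-06). Mmp2, the other gelatinase, fell by 0.82 (adjusted p = 0.00174), with 8.90, 9.27, 9.47 and 8.52 in control and 8.57, 8.04, 8.15 and 8.10 with FGF2, and its groups overlapped. Among 13 Adam and Adamts genes 5 rose and 3 fell. Adamts1 went from 7.45, 7.25, 7.68 and 7.18 to 10.74, 10.67, 10.70 and 10.70 (3.31, adjusted p = 1.87e-11) and Adamts9 rose by 1.98. Adamts12 fell from 9.07, 9.60, 9.52 and 9.36 to 7.45, 7.35, 7.40 and 7.12 (-2.06, adjusted p = 8.19e-08). The inhibitors of metalloproteinases went apart as well. Timp1 rose from 10.99, 11.38, 11.22 and 11.01 to 12.67, 12.61, 12.58 and 12.70 (1.49, adjusted p = 5.65e-09). Timp4 fell by 2.01 (adjusted p = 1.25e-09) and Timp3 by 0.97 (adjusted p = 2.56e-06).

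Matrix proteins showed no common direction. The summed fibroblast markers stood at 11.24 to 11.89 in control and 10.83 to 11.75 with FGF2, 2 of the 5 fell and 0 rose (median -0.48), and their part in these results was not tested. Of 23 collagens 3 rose and 4 fell (median -0.08), and 1 rose without control replicate 1 and likewise without FGF2 replicate 1. Among 16 glycoproteins 4 rose and 3 fell, with Nid2, a basement membrane linker, at 1.48 and Fbln5, which organizes elastic fibres, at -1.85 (adjusted p = 3.07e-07). Proteoglycans fell more often than they rose, 7 against 2 of 19 (median -0.33). Bcan, brevican, the hyaluronan-binding proteoglycan of brain matrix, fell from 10.74, 10.70, 10.55 and 10.68 to 9.35, 9.39, 9.38 and 9.42 (-1.28, adjusted p = 4.54e-10), and Omd, osteomodulin, fell by 1.76. Sdc1, a cell surface heparan sulfate proteoglycan, moved against them, from 7.50, 7.41, 7.25 and 7.57 to 10.00, 9.88, 9.95 and 9.88 (2.49, adjusted p = 8.28e-11).

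The enzymes that build and sulfate glycosaminoglycans rose in 3 of 26 and fell in 4 (11.5% and 15.4%, beside 10.6% and 8.86% of all genes). Papss2, which makes the sulfate donor, fell from 9.78, 9.72, 9.66 and 9.78 to 6.75, 6.55, 6.6 and 6.82 (adjusted p = 1.87e-11), and Extl1, of the exostosin family of heparan sulfate synthesis, fell by 1.56. The chondroitin sulfotransferases Chst3 (1.57) and Chst11 (1.11) and the hyaluronan synthase Has2 (1.74) rose. Of 11 integrins 3 rose and 2 fell. Itga5, the fibronectin receptor subunit, went from 6.92, 7.19, 6.96 and 6.50 to 9.96, 9.64, 9.53 and 9.58 (2.78, adjusted p = 4.33e-09), and Itgb4, a laminin receptor subunit, fell by 1.25 (adjusted p = 1.55e-06). Vcam1, a cell adhesion molecule of the immunoglobulin family, fell by 1.25, and L1cam, an axonal adhesion molecule, by 0.66.

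Guidance cues and their receptors fell more often than they rose in the ephrin and semaphorin families. Of 14 ephrins and Eph receptors 1 rose and 7 fell (median -0.44), among them Ephb1 (-0.83, adjusted p = 2.41e-07) and Epha4 (-0.75), while the ligand Efnb1 rose by 0.55, a call that was lost without control replicate 1 (0.48). Of 24 semaphorins and plexins 2 rose and 6 fell. Sema3a, a secreted repellent of axons, was the exception in size, going from 8.10, 7.90, 8.21 and 7.62 to 10.45, 9.99, 10.03 and 10.08 (2.18, adjusted p = 1.38e-08). Unc5b, a repulsive netrin receptor, rose from 8.73, 8.50, 8.53 and 8.73 to 10.80, 10.86, 10.96 and 10.96 (2.27, adjusted p = 2.04e-10), and Slit1, a repellent of axons, fell by 0.63.

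Receptors for the main fast transmitters fell or were not called. Of 10 glutamate receptor genes 0 rose and 4 fell (median -0.43), and of 11 genes of GABA and glycine receptors 0 rose and 5 fell (median -0.39). Grm3, a metabotropic glutamate receptor also found on astrocytes, fell from 9.24, 9.11, 9.17 and 9.05 to 7.91, 7.84, 7.82 and 7.97 (-1.26, adjusted p = 2.70e-08). Gabra2, a GABA receptor subunit, fell from 11.22, 11.16, 11.05 and 11.12 to 10.30, 10.25, 10.28 and 10.36 (-0.84, adjusted p = 3.54e-08), and Glrb, the beta subunit of glycine receptors, by 0.52. In each of these lists the groups did not overlap for 9 genes, beside 46.1% of all clusters. Grin1, the subunit that every NMDA receptor needs, had -0.38 (adjusted p = 1.93e-05), which is under 1.4-fold. The summed level of the neuron markers was 13.99 to 14.02 in control and 13.85 to 13.91 with FGF2, and its part in these results was not tested. Among other receptors, the adrenergic receptor Adrb1 rose by 1.12 and the serotonin receptor Htr2a by 0.67.

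Potassium channel genes fell in 14 of 36 and rose in 3 (median -0.39), and voltage-gated sodium and calcium channel genes fell in 6 of 18 and rose in 1 (median -0.37). Kcnj10, the inward rectifier of astrocytes and oligodendrocytes, fell from 11.13, 11.26, 11.24 and 11.06 to 8.94, 9.01, 8.75 and 9.11 (4.66-fold, adjusted p = 1.98e-10). Scn7a, an atypical sodium channel, fell from 10.51, 10.49, 10.57 and 10.70 to 8.81, 9.17, 8.98 and 8.93 (-1.60, adjusted p = 4.59e-09). The sodium channel subunit Scn3b fell by 0.80 and the potassium channel Kcnh5 fell by 0.92. Kcnf1, a modifying subunit of potassium channels, rose by 1.32 (adjusted p = 4.33e-07). Of the connexins, Gja1, the main astrocyte connexin, fell by 0.83 and Gjb2 by 2.32, from 8.09, 8.95, 8.77 and 8.46 to 6.41, 6.13, 6.48 and 5.98. Clic1, a chloride intracellular channel protein, rose from 9.83, 10.01, 10.05 and 9.93 to 12.01, 11.94, 11.86 and 11.84 (1.96, adjusted p = 1.09e-10). Summed astrocyte markers stood at 14.23 to 14.30 in control and 13.70 to 13.80 with FGF2 beside these results, and their part was not tested.

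Of 25 amino acid and neurotransmitter transporters 7 fell and 3 rose. The falls included Slc6a11, an astrocyte GABA transporter (-1.64), Slc7a11, the cystine and glutamate exchanger (-1.51), Slc6a9, a glycine transporter of astrocytes (-1.33), and Slc38a3, a glutamine transporter (-1.33). Slc7a1, which imports arginine and lysine, rose from 9.02, 8.69, 8.72 and 8.73 to 10.12, 10.04, 9.97 and 10.08 (1.26, adjusted p = 9.37e-09). Among transporters of sugars, lactate and ions, Slc16a3, a lactate exporter, rose by 2.08 and Slc4a7, a sodium bicarbonate cotransporter, by 1.75. Its relative of astrocytes Slc4a4 fell by 1.30, and Slco1c1, a thyroid hormone transporter, fell from 8.13, 8.08, 8.03 and 8.37 to 5.84, 5.88, 5.89 and 6.6 (-2.10, adjusted p = 4.29e-07).

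Neuropeptide genes rose in 12 of 28 (42.9%, beside 10.6% of all genes), and 3 fell. Gal, galanin, went from 6.93, 6.87, 6.94 and 6.90 to 9.40, 9.57, 9.51 and 9.46 (2.57, adjusted p = 4.43e-11). Vgf, a secretory protein induced by neurotrophins, went from 10.01, 10.28, 10.13 and 10.09 to 11.98, 12.02, 12.05 and 12.01 (1.89, adjusted p = 4.70e-11). Pdyn, the dynorphin precursor, rose by 1.23, and Ucn2 rose by at least 4.60, from 4.89, 4.90, 4.76 and 4.86 to 9.43, 9.58, 9.44 and 9.38. Other members of the list, read after their values were seen, were the peptides Calcb (2.06), Trh (1.70), Crh (1.27), Vip (1.10) and Npy (0.98) among the rises and Sst (0.00) and Tac1 (0.05) among those not called. Nppc, C-type natriuretic peptide, fell by 0.58.

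**Figure D5:**
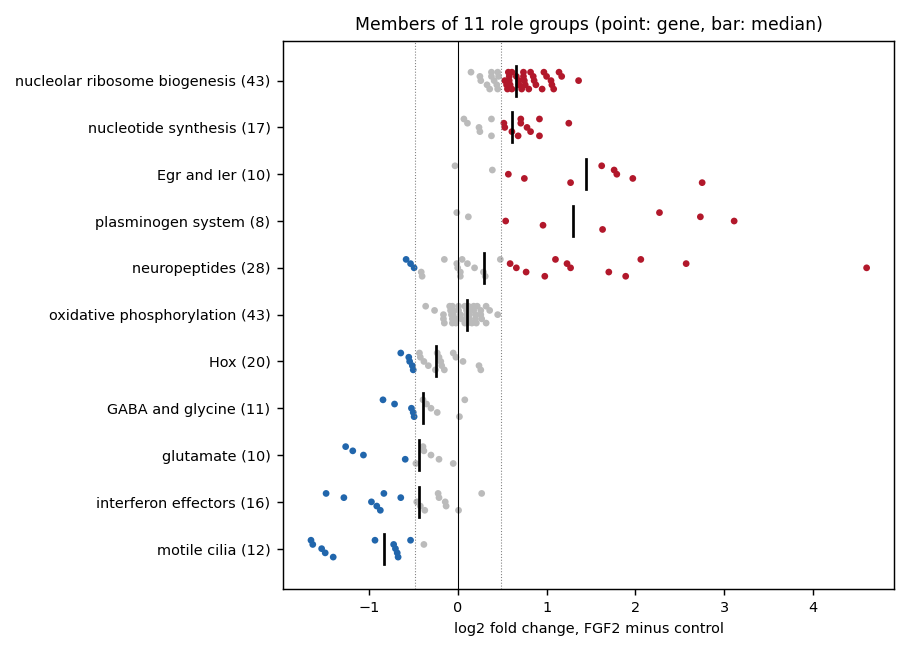
Log2 fold change of each measured member of 11 role groups (horizontal), with rises in red, falls in blue, members not called in grey, a black bar at the median and dotted lines at 1.4-fold in both directions. All 43 nucleolar genes lie to the right of 0, all 12 cilium genes to the left, and the 43 genes of oxidative phosphorylation between the dotted lines.

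In energy metabolism the respiratory chain stayed within 1.4-fold. Of 43 measured genes of oxidative phosphorylation limma called 0, with log2 fold changes from -0.36 to 0.45 (median 0.10), and 0 reached the threshold in the plain ANOVA. At an unadjusted limma p under 0.05, without a fold threshold, 17 were higher and 3 lower, and the share of all clusters there was not counted. By adjusted p alone 16 of the 43 passed, beside 45.6% of all clusters. The groups did not overlap for 21, beside 46.1%, so these counts did not set the list apart. Of 11 genes of glycolysis and pyruvate entry 1 rose and 2 fell, and 1 fell without control replicate 1 and likewise without FGF2 replicate 1. Hk2, a hexokinase induced by growth factors, rose from 6.97, 6.89, 6.76 and 7.06 to 8.89, 8.74, 8.83 and 8.82 (1.90, adjusted p = 1.09e-10), and Pdk4, which shuts pyruvate out of the mitochondrial cycle, fell from 7.16, 6.93, 7.12 and 7.35 to 4.99, 5.29, 5.26 and 5.24 (-1.95, adjusted p = 1.54e-09). Of 26 genes of fatty acid oxidation 6 fell and 1 rose (median -0.25), with the dehydrogenase Acadl at -0.55 and the nuclear receptor Ppard at 0.62. Of 17 cholesterol genes 4 rose and 1 fell, the fall being Srebf1, a master factor of lipid synthesis, at -1.31 (adjusted p = 3.39e-09), and the sterol enzymes Hsd17b7 and Msmo1 rose by 0.87 and 0.70. The myelin lipid enzymes Fa2h and Ugt8 fell by 1.04 and 0.95, beside the fall of the oligodendrocyte markers, whose part was not tested.

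Genes of biosynthesis for growth rose. Of 9 genes of serine and folate one-carbon metabolism 7 rose and 0 fell (median 0.57). Shmt1, the cytosolic serine hydroxymethyltransferase, went from 6.26, 6.26, 6.28 and 6.18 to 8.36, 8.46, 8.33 and 8.60 (2.19, adjusted p = 3.26e-11), and the mitochondrial folate enzymes Mthfd2 and Mthfd1l rose by 1.49 and 1.57. Of 17 genes of nucleotide synthesis 11 rose and 0 fell (median 0.61), with Gart, of purine synthesis, and Cad, which starts pyrimidine synthesis, both at 0.92, and Rrm2, a ribonucleotide reductase subunit, at 1.25. Polyamine synthesis rose at 2 of 9 genes, the spermidine synthase Srm (1.29, adjusted p = 1.14e-09) and the ornithine decarboxylase Odc1 (0.89). Among 29 genes of glutathione and the antioxidant response 4 rose and 8 fell. Cbs, which starts the route from homocysteine to cysteine, fell from 8.71, 8.84, 8.69 and 8.98 to 6.40, 6.51, 6.48 and 6.57 (-2.32, adjusted p = 1.09e-10), and Mgst1, a glutathione transferase, fell by 1.36. Hmox1, heme oxygenase, and Gss, the glutathione synthetase, rose by 1.45 and 1.07.

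The nucleolar factors of ribosome synthesis rose together. Of 43 measured genes 31 rose (72.1%, beside 10.6% of all genes) and 0 fell (log2 fold changes 0.15 to 1.36, median 0.66). All 43 had a limma adjusted p under 0.05, beside 45.6% of all clusters. For all 43 the groups did not overlap, beside 46.1% of all clusters. Ddx21, an RNA helicase, went from 9.74, 9.74, 9.81 and 9.78 to 10.78, 10.93, 10.81 and 10.89 (1.08, adjusted p = 8.70e-10). Polr1e, a subunit of RNA polymerase I, went from 8.58, 8.50, 8.37 and 8.68 to 9.58, 9.70, 9.69 and 9.70 (1.14, adjusted p = 1.05e-08). Nop2, an rRNA methyltransferase, and Pno1, of small subunit assembly, rose by 1.00 and 1.05. The promoters of this group were read for the same motifs. Of 39 with an entry 0 held the AP-1 motif, 7 (17.9%) the E-box and 10 (25.6%) the ETS motif, against 6.63% and 4.91% of all promoters for the last 2. Over all called genes the ETS motif was in 7.86% of the promoters of rises and 0.986% of those of falls, and the E-box in 9.74% and 6.02%. The median G and C content of the promoters was 59.2% for nucleolar genes, 59.6% for all rises, 58.8% for all falls and 56.0% for all genes, and its part in the motif shares was not tested. The member with the highest log2 fold change among those holding each motif is shown, 120 bases up to the start in GRCr8, read toward the gene, with the E-box in Ddx18 and the ETS motif in Polr1e in capitals.
Ddx18 (chr13:35295973-35296092, minus strand): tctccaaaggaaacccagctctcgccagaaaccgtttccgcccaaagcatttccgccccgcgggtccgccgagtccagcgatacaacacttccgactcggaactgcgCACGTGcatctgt
Polr1e (chr5:64075003-64075122, plus strand): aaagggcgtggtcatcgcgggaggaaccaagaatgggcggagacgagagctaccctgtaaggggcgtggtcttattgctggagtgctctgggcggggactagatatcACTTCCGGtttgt

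Both motifs began 13 bases before the start, and in Polr1e the strand shown read the ETS motif in its reverse form, ACTTCCGG. Of 16 factors of translation initiation and elongation 6 rose and 0 fell (median 0.36), with Eif4ebp1, a repressor of cap-dependent translation, at 1.47 (adjusted p = 3.45e-09) and Eif3b, a core initiation factor, at 0.75. Of 23 chaperones 8 rose and 1 fell. The chaperonin subunit Cct3 rose by 0.58, and the small heat shock protein Hspb1 fell from 11.54, 11.83, 11.72 and 11.51 to 10.48, 10.77, 10.62 and 10.58 (-1.04, adjusted p = 1.67e-07). Of 20 genes of the integrated stress and unfolded protein response 5 rose and 2 fell, with Xbp1, a transcription factor of that response, at 0.65 and Nupr1, a stress-induced chromatin protein, at -1.05. Proteasome subunits changed by small amounts, with 22 of 26 at an adjusted p under 0.05 (beside 45.6% of all clusters), 25 of 26 above 0 and a median of 0.24, and 2 reached 1.4-fold, 1 without control replicate 4 or FGF2 replicate 2, and 0 after each array's median was subtracted.

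Enzymes of hormone metabolism were among the largest changes. Retinoid genes rose in 4 of 16 and fell in 6. Rdh5 went from 6.0, 6.08, 6.02 and 6.38 to 10.90, 10.87, 10.88 and 10.75 (26.5-fold, adjusted p = 2.57e-11), and Dhrs9, another retinol dehydrogenase, and Aldh1a3, which makes retinoic acid, rose by 1.65 and at least 1.37. Aox1, an aldehyde oxidase that can act on retinaldehyde, fell from 8.97, 8.91, 8.94 and 9.13 to 5.70, 5.88, 6.08 and 5.54 (9.09-fold, adjusted p = 8.69e-11). Dio3, the deiodinase that inactivates thyroid hormone, rose from 5.64, 5.49, 5.50 and 5.39 to 8.58, 8.79, 8.14 and 8.29 (2.94, adjusted p = 1.19e-08). The thyroid hormone transporter Slco1c1 fell, as given above. Cyp7b1, an oxysterol hydroxylase, fell by 2.29 (adjusted p = 1.15e-09).

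In the prostanoid and angiotensin systems 3 of 19 genes rose and 3 fell. That was 15.8% each way, not far from the 10.6% and 8.86% of all genes. The 3 rises were those of enzymes of prostanoid synthesis. Pla2g4a, which frees arachidonic acid, rose by 0.80, Ptgs1 and Ptgs2, the cyclooxygenases, by 0.98 and 2.45, and outside this list Tbxas1, which makes thromboxane, went from 7.10, 7.00, 7.13 and 7.09 to 10.32, 10.36, 10.40 and 10.38 (9.73-fold, adjusted p = 8.28e-11). Ptgs2 went from 7.07, 6.92, 6.57 and 7.12 to 9.79, 9.29, 9.13 and 9.28 (adjusted p = 6.19e-07). The largest of the 3 falls was that of Agt, angiotensinogen, which astrocytes make. It went from 8.38, 8.28, 8.06 and 8.19 to 6.51, 6.33, 6.43 and 6.48 (-1.79, adjusted p = 3.82e-09).

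Position genes of the spinal cord moved little. Of 20 Hox genes 0 rose and 5 fell (median -0.24), from Hoxb8 at -0.64 (adjusted p = 3.18e-07) to Hoxa7 at -0.50, and 3 fell without control replicate 3 and likewise without FGF2 replicate 3. Hoxb8 had values of 11.21, 11.24, 11.28 and 11.19 in control and 10.58, 10.58, 10.52 and 10.65 with FGF2, so that the groups did not overlap although the change was small. Of 24 patterning and progenitor factors 1 rose and 7 fell. Sox5, a regulator of glial and neuronal development, fell from 8.19, 8.35, 8.27 and 8.44 to 6.75, 6.89, 6.89 and 6.86 (-1.47, adjusted p = 7.56e-09), and Sox3, a progenitor factor, fell by 1.15. Gli2, a transcription factor of Hedgehog signals, rose by 1.05, and Hhip, an inhibitor of Hedgehog ligands, fell by 1.47.

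Genes of motile cilia fell in 11 of 12 measured members (91.7%, against 8.86% of all genes), and 0 rose (median -0.83, range -1.65 to -0.38). Motile cilia beat by means of dynein arms and radial spokes, and in the central nervous system ependymal cells carry them. Rfx2, a transcription factor of ciliary genes, fell from 7.80, 7.81, 7.99 and 7.80 to 6.96, 6.86, 6.96 and 6.91 (-0.93, adjusted p = 2.23e-08). The radial spoke protein Rsph4a fell from 7.00, 7.24, 7.34 and 7.40 to 5.69, 5.53, 6.04 and 5.61 (-1.53, adjusted p = 9.24e-08). The dynein chain Dnai1 fell from 7.90, 7.86, 7.84 and 8.46 to 6.45, 6.51, 6.40 and 6.72 (-1.49, adjusted p = 4.41e-07), and Dnah9 from 7.71, 7.74, 7.83 and 8.28 to 6.14, 6.48, 6.0 and 6.43 (-1.63, adjusted p = 5.81e-07). Control replicate 4 was the highest control array for Dnai1 and Dnah9. For all 12 genes the groups did not overlap, beside 46.1% of all clusters. A regulator and structural parts thus fell alike. Of 4 ependymal markers only Tekt1, a tektin of the ciliary axoneme, had a named cluster, with a control mean of 8.56 and a log2 fold change of -0.38, and it is also the list's member that was not called. The part of ependymal cell number was not tested.

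Regulators of the cell cycle entry included changes in both directions. Of 9 such genes 3 rose and 1 fell. Cdkn2b, an inhibitor of the G1 kinases, went from 7.04, 6.74, 6.98 and 6.84 to 9.46, 9.64, 9.50 and 9.62 (2.66, adjusted p = 5.88e-11), and the cyclins of S phase entry Ccne1 and Ccne2 rose by 0.88 and 1.21. Cdkn1c, another inhibitor of cell cycle kinases, fell by 1.26 (adjusted p = 5.71e-05). Of 15 genes of p53 targets and apoptosis 7 rose and 1 fell (median 0.43). Pmaip1, the death-promoting BH3 protein Noxa, went from 5.66, 5.31, 5.61 and 5.62 to 7.97, 7.65, 7.48 and 7.78 (2.17, adjusted p = 5.79e-09), the nuclease gene Aen rose by 1.35 and the stress gene Gadd45g by 1.08. Bmf, another BH3 gene, fell by 0.62 (adjusted p = 0.000103).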

How the data were processed

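RNA of the cultures was hybridized to whole-transcript rat gene arrays, and the authors deposited log2 expression values made with GCRMA in Partek Genomics Suite 6.6, 1 value per transcript cluster and array. Background correction by GCRMA sets the floor near which low values are poorly resolved, which is why a fold change from a mean under 5 is given as a lower bound. The number of arrays limits the precision. The 4 Control, 4 humanFGF2 and 4 F2V2 arrays were fitted with limma 3.58.1 in R 4.3.3 (lmFit and eBayes), and p-values were adjusted by the method of Benjamini and Hochberg over the 15653 clusters with a symbol. Symbols came from the platform annotation and 14670 clusters were matched to RefSeq by gene ID, and the 829 clusters with several symbols were counted but not named. A gene with several clusters was read from its brightest. The design and test were also run on simulated data.

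The genes and lists were chosen with earlier results of these data known. Named genes were the 15 highest and 15 lowest called log2 fold changes with groups that did not overlap, up to 4 members of each list by adjusted p with the largest opposite change, the 10 largest changes among genes with both means of at least 7, and the cell type markers. Il6, Tfpi, Calcb, Trh, Crh, Vip, Npy, Sst, Tac1 and Ddx18 fell outside this rule and were chosen after their values were seen. Alternatives changed the arrays in the fit, the normalization, the filter on dim clusters, the variance prior, the test, the thresholds, the clusters tested and the replicates. Promoter sequences came from RefSeq on GRCr8.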

Additional observations from a re-analysis of the deposited data

Results flagged for a closer look

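Among 440 groups of 4 arrays of the named genes, 24 held 1 array whose gap to the nearest of the others was large beside the range of the group (Dixon's test at the 95% level). Chance alone flags about 1 in 20 groups, so this number is near what chance gives. All values are on the log2 scale, with the nearest other array given second. The highest control array stood apart for Egr2 (6.38, next 6.11), Hgf (9.84, next 9.77), Flrt1 (8.51, next 8.47), Elk3 (8.30, next 8.07), Slit1 (10.41, next 10.30), Slc7a1 (9.02, next 8.73), Sst (11.77, next 11.70), Rfx2 (7.99, next 7.81) and Dnai1 (8.46, next 7.90). The highest FGF2 array stood apart for Hgf (6.44, next 6.39), Slc6a13 (8.0, next 7.16), Ier3 (10.55, next 10.13), Chst11 (11.07, next 10.99), Slco1c1 (6.6, next 5.89) and Hmox1 (10.73, next 10.53). The lowest FGF2 array stood apart for Hes5 (4.92, next 5.25), Timp3 (11.08, next 11.28), Pdk4 (4.99, next 5.24), Mthfd2 (10.03, next 10.08) and Polr1e (9.58, next 9.69). The lowest control array stood apart for Flt1 (4.94, next 5.14), Shmt1 (6.18, next 6.26), Srm (10.96, next 11.03) and Pmaip1 (5.31, next 5.61).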

How the results depend on the processing

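Against 1637 rises and 1344 falls, the threshold of 2-fold gave 489 and 345, adjusted p alone 3825 and 3315, and all transcript clusters, with and without a symbol, 2404 and 2674. Leaving out 1 array gave 1598 to 1684 rises and 1311 to 1357 falls. Quantile normalization gave 1437 and 1529, and subtraction of each array's median 1449 and 1552. Equal replicate numbers showed no sign of pairing between arrays. The correlation of deviations was -0.121 to 0.0166 between same-numbered arrays and -0.18 to 0.187 between the others, which cannot settle whether they were paired. The fit with the replicate number as a block gave 1636 and 1340. The other fits, in arrays, dim clusters, prior and the plain ANOVA, gave 1617 to 1639 rises and 1317 to 1347 falls. Of 208 called genes named here 0 changed direction, and at the 1.4-fold threshold 4 lost the call under at least 1 alternative, Ngfr, Efnb1, Hoxa7 and Psmb8, each with a change close to 1.4-fold. Of 43 list counts of at least 4 genes, 1 moved by more than 1.5 times at the 1.4-fold threshold, that of the Hox falls. Of all 138 list counts 16 did. After subtraction of each array's median 2 chaperones and 2 regulators of the cell cycle entry fell in place of 1 each. Low signal limits the 4 of the 15 highest genes whose control mean is under 5 to lower bounds.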
